A study of Mus musculus with 8 samples.

Results

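The mouse mitochondrial genome encodes 37 genes, and the count table lists all of them among its 55487 genes: 13 protein genes, 2 ribosomal RNAs and 22 transfer RNAs. They were chosen by their symbols, which start with mt-, without use of any measured value. The samples were 8 RNA-seq libraries of heart tissue from db/db mice, which lack a working leptin receptor and become obese and diabetic. Of these, 4 came from db/db mice that received DIZE and 4 from db/db mice given vehicle. DIZE is read here as diminazene aceturate, a drug against protozoa. All 8 libraries carry the db/db genotype, no lean animals are analysed here, and the labels give no age, dose or duration. The labels also do not say whether each library is a separate animal, so the tests measure the spread between these samples, which may be technical.

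Mitochondrial DNA is transcribed from both strands as long precursors, which are cut at the tRNAs into single mRNAs, rRNAs and tRNAs. Its 13 proteins are subunits of respiratory complexes I, III and IV and of the ATP synthase, and both rRNAs form the core of the ribosome that makes them. The heart is rich in mitochondria, and these transcripts are among its most abundant. Mitochondrial mRNAs carry short poly(A) tails, and mt-Nd6 mRNA, the protein transcript of the other strand, is known in human cells to lack one. The libraries here were made from RNA bound to oligo(dT), so the counts show poly(A)-selected RNA and not total mitochondrial RNA.

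Library totals lay between 8042396 and 10161623 counts in DIZE and between 7447664 and 10056759 counts in vehicle. CPM below are counts scaled to equal library totals. All 12 listed markers of heart muscle cells had enough reads to be tested, and their sum lay between 51274 and 55190 CPM in DIZE and between 39764 and 55024 CPM in vehicle. Vehicle 1 had the lowest heart muscle sum and the highest atrial sum, with 1070 CPM, where DIZE had 20.9 to 157 CPM and the remaining vehicle libraries 46.3 to 402 CPM. Vehicle 2 held 1597 CPM of liver transcripts, where DIZE had at most 2.84 CPM and the remaining vehicle libraries at most 7.56 CPM. The summed erythroid markers were lower in all DIZE libraries (8.46 to 79.2 CPM) than in all vehicle libraries (102.8 to 219 CPM). In bulk tissue, fewer cells of a type and less RNA per cell cannot be told apart, and the part of these differences in the results below was not tested.

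The sequences of several members bear on how their reads can be counted, and those are shown first. They come from the GENCODE transcripts of GRCm38, the assembly also called mm10. A stretch of chromosome 1 (chr1:24611535-24616197, minus strand) carries 7 annotated genes that are near-identical copies of mitochondrial protein genes in the same order. Capitals mark the base that differs between the start of mt-Nd3 (chrM:9459-9518, plus strand) and the start of its copy Gm28438 (chr1:24613060-24613119, minus strand), where position 1 is the first base of the gene and the difference is T3C.
mt-Nd3: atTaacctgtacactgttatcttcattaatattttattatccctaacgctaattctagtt
Gm28438: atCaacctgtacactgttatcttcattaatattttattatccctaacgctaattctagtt
Past that base, the remaining 342 aligned bases of the copy were identical to mt-Nd3.

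The copy ends inside mt-Nd4. In the first line below (chrM:10983-11102, plus strand) capitals mark the 60 bases that lie past the end of the annotated copy Gm28439. The second line is the last 60 bases of that copy (chr1:24611535-24611594, minus strand).
mt-Nd4: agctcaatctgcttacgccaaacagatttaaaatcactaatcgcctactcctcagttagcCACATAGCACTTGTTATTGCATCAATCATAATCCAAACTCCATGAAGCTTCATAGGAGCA
Gm28439: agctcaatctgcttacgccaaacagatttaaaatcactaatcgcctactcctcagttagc
A stretch of 151 bases, the read length stated in the labels, that lies wholly before the capitals is the same in both places.

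Neighbouring genes of this genome also overlap, which can leave a read with no single gene. The end of mt-Atp8 (chrM:7907-7969, plus strand) shares its last 43 bases, in capitals, with the start of mt-Atp6.
mt-Atp8: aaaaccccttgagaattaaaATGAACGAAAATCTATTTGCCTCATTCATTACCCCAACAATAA
The end of mt-Nd4l (chrM:10147-10173, plus strand) shares its last 7 bases with the start of mt-Nd4.
mt-Nd4l: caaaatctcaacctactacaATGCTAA
Both pairs are known to be carried on a shared mRNA.

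Mitochondrially encoded genes took 8.24%, 8.26%, 7.65% and 7.50% of all counts in DIZE 1 to 4, against 9.26%, 9.07%, 9.90% and 7.56% in vehicle 1 to 4. The means were 7.91% ± 0.396 in DIZE and 8.95% ± 0.990 in vehicle (SD, n = 4 each), and the groups overlapped because vehicle 4 lay inside the DIZE range. The 95% exact (Clopper-Pearson) intervals of these shares reached at most 0.0215 percentage points to either side, which covers counting error only. Protein genes made up most of the sum, with 7.39% ± 0.391 of all counts in DIZE and 8.18% ± 0.900 in vehicle. The rRNAs took 0.497% ± 0.0375 in DIZE and 0.750% ± 0.0872 in vehicle, with every DIZE library below every vehicle library. The tRNAs took 0.0230% ± 0.0131 in DIZE and 0.0196% ± 0.00381 in vehicle, and overlapped.

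Of the 37 genes, 17 had at least 1 count and 16 had enough counts to be tested: the 13 protein genes, both rRNAs and 1 tRNA, mt-Tp. None of the 16 passed edgeR's quasi-likelihood test at an adjusted p of 0.05, where 5 of all 13648 tested genes passed (0.0366%). At an unadjusted p under 0.05, 3 of the 16 passed, all lower in DIZE: mt-Rnr1, mt-Rnr2 and mt-Nd3. In that direction 10.3% of all tested genes passed. Of the 1262 tested nuclear genes with GC content in the range of the 13 protein genes, 254 did. DESeq2 passed 2 of the 16, both rRNAs, among 588 genes in all. The number of genes DESeq2 tested is not given here, so this count has no share beside it.

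The 2 ribosomal RNAs gave the largest differences. mt-Rnr1 (ENSMUSG00000064337), the RNA of the small ribosomal subunit, lies at chrM:70-1024 on the plus strand. It had 1467, 1517, 1727 and 1347 CPM in DIZE 1 to 4, against 2501, 2504, 2712 and 2029 CPM in vehicle 1 to 4. DIZE 3 was the highest DIZE library and vehicle 4 the lowest vehicle library, and the groups did not overlap, as in 6.18% of all tested genes in that direction. The log2 fold change was -0.62 ± 0.13 (SE), with an edgeR adjusted p of 0.0888.

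mt-Rnr2 (ENSMUSG00000064339), the RNA of the large subunit, lies next to it at chrM:1094-2675 on the same strand. It had 3382, 3442, 3750 and 3235 CPM in DIZE 1 to 4, against 5248, 5163, 5607 and 4238 CPM in vehicle 1 to 4. The groups again did not overlap, with the same extreme libraries as for mt-Rnr1. The log2 fold change was -0.49 ± 0.12 (SE), with an edgeR adjusted p of 0.0989. An adjusted p under 0.1 was reached by 1.01% of all tested genes in the lower direction. DESeq2 gave adjusted p-values of 0.0025 for mt-Rnr1 and 0.0109 for mt-Rnr2, and edgeR without a filter on low counts gave 0.0144 for mt-Rnr1 and 0.0563 for mt-Rnr2. After removal of the dependence on GC content and length in each library, the log2 values were -0.28 for mt-Rnr1 (edgeR adjusted p = 0.427) and -0.21 for mt-Rnr2 (edgeR adjusted p = 0.513). Over all alternatives run, the adjusted p ran between 0.0025 and 0.427 for mt-Rnr1 and between 0.0109 and 0.513 for mt-Rnr2, with both lower in DIZE throughout.

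The rRNAs also took a smaller share within the mitochondrial reads of DIZE hearts, a comparison that does not depend on how libraries are scaled to each other. There were 6.26, 6.42, 7.73 and 6.52 rRNA reads per 100 protein-gene reads in DIZE 1 to 4, against 9.16, 9.25, 9.20 and 9.06 in vehicle 1 to 4. The vehicle libraries stood close together, with 9.17 ± 0.0811, while the DIZE libraries had 6.73 ± 0.671 and DIZE 3 lay nearest to vehicle. The ratio was also taken against only mt-Nd1, mt-Nd2, mt-Nd5, mt-Nd6 and mt-Cytb, the 5 protein genes outside the stretch copied on chromosome 1. The values were 10.7 ± 1.02 in DIZE and 14.3 ± 0.239 in vehicle, again with no overlap. None of the 5 shares an identical stretch of read length with an annotated nuclear gene. Less exact annotated copies exist for mt-Nd2 (96.7% identity over the aligned bases), mt-Nd5 (95.2%), mt-Nd6 (93.6%) and mt-Cytb (92.9%). The sample titles come in a pair of forms, with and without the letters db, and the ratio in DIZE minus that in vehicle was -2.86 in the first form and -2.0 in the second, with 2 libraries per group in each.

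The small-subunit rRNA also differed against the large. There were 43.4, 44.1, 46.1 and 41.6 mt-Rnr1 reads per 100 mt-Rnr2 reads in DIZE 1 to 4, against 47.6, 48.5, 48.4 and 47.9 in vehicle 1 to 4. Every DIZE library lay below every vehicle library, and DIZE 3 was again the nearest. This ratio and the one before it were chosen after their values were seen and were given no test.

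**Figure D1:**
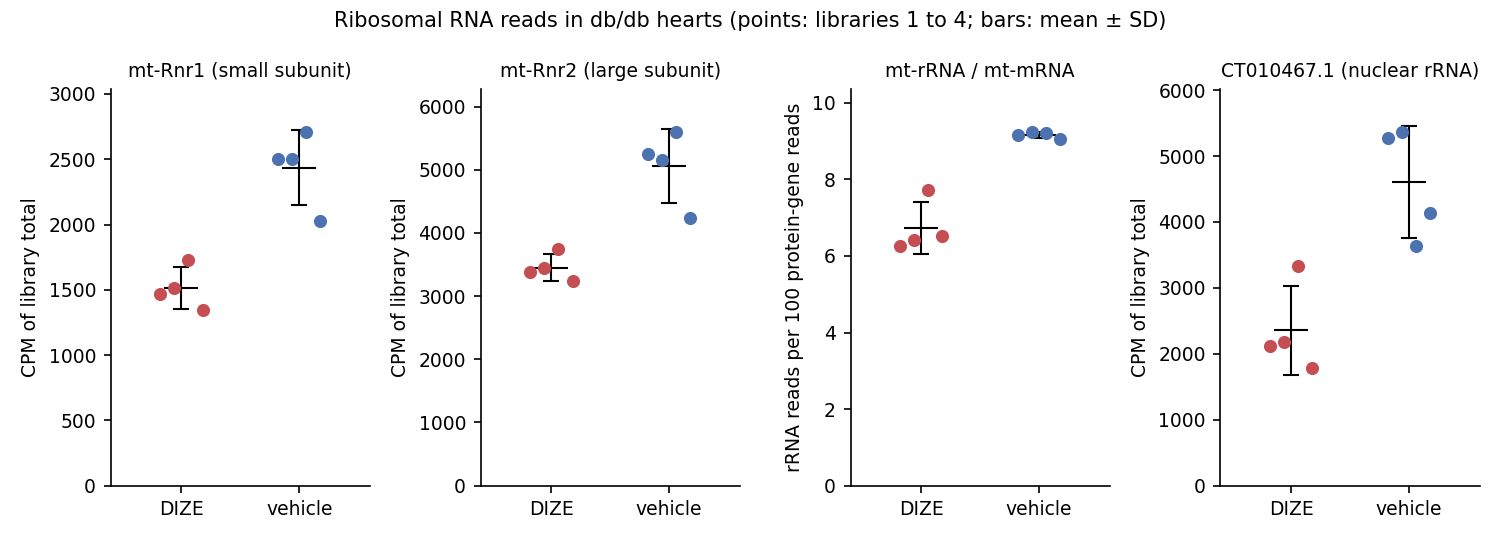
Reads of mt-Rnr1, mt-Rnr2 and the nuclear gene CT010467.1 in CPM of the library total, and mitochondrial rRNA reads per 100 mitochondrial protein-gene reads, for 4 DIZE and 4 vehicle libraries (points), with mean ± SD (bars). In each panel the DIZE points lie below the vehicle points, and in the ratio panel the vehicle libraries lie between 9.06 and 9.25.

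Reads of nuclear rRNA moved with this result. CT010467.1 on chromosome 17, which the annotation calls an rRNA gene and which was chosen after its values were seen, had 2122, 2180, 3338 and 1792 CPM in DIZE 1 to 4. In vehicle 1 to 4 it had 5269, 5372, 3633 and 4142 CPM. The log2 fold change was -0.90 ± 0.20 (edgeR adjusted p = 0.0888), the groups did not overlap, and DIZE 3 was the highest DIZE library as for both mitochondrial rRNAs. Within the vehicle group the order differed, since vehicle 3 was lowest for CT010467.1 and highest for mt-Rnr1 and mt-Rnr2. The part of rRNA carry-over through poly(A) selection in the mitochondrial rRNA values was not tested.

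Because selection binds runs of A, the longest such run in each rRNA is shown in capitals within its 60-base surroundings, beside that of mt-Nd2, the longest among the protein genes. They lie at chrM:678-737, chrM:1462-1521 and chrM:4026-4085, all on the plus strand.
mt-Rnr1: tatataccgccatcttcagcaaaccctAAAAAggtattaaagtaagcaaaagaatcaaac
mt-Rnr2: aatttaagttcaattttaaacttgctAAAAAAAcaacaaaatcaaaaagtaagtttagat
mt-Nd2: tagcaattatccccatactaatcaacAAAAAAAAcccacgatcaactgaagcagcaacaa
The runs held 5 bases in mt-Rnr1, 7 in mt-Rnr2 and 8 in mt-Nd2. Whether the rRNAs were bound at these runs or elsewhere was not tested. Adenine made up 37.8% of mt-Rnr1 and 38.2% of mt-Rnr2, within the range of the 13 protein genes, which ran from 22.2% in mt-Nd6 to 40.7% in mt-Atp8.

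All 13 protein genes lay lower in DIZE, each by little. Their log2 fold changes ran from -0.29 for mt-Nd3 to -0.02 for mt-Co1, with a median of -0.11, beside a median of -0.01 over all tested genes, of which 51.8% lay lower. Without the filter on low counts, and without DIZE 3, DIZE 4, vehicle 2 or vehicle 3, mt-Co1 turned to a small positive value, at most 0.04. For 4 of the 13, mt-Atp8, mt-Atp6, mt-Co3 and mt-Nd4l, every DIZE library lay below every vehicle library, as in 6.18% of all tested genes and 131 of the 1262 tested nuclear genes in the same range of GC content. Vehicle 4 was the lowest vehicle library for each of the 13 except mt-Atp8.

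Libraries differed in how strongly counts followed GC content, and the mitochondrial genes sit at its low end. Over 13638 genes, which do not count as replicates, log2 fold change and GC content had a Spearman correlation of 0.39. The 13 protein genes hold 31.9% to 41.1% GC. Of the 1262 tested nuclear genes in that range, 953 lay lower, with a median log2 fold change of -0.16. The rRNAs, at 35.8% and 35.4% GC, lie in the same range. After removal of the dependence on GC content and length in each library, all 13 protein genes turned to positive values, from 0.08 for mt-Co3 to 0.36 for mt-Atp8 (median 0.19, beside 0.03 over all genes), and none passed. The direction of the protein genes thus depended on this setting, while that of both rRNAs did not.

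**Figure D2:**
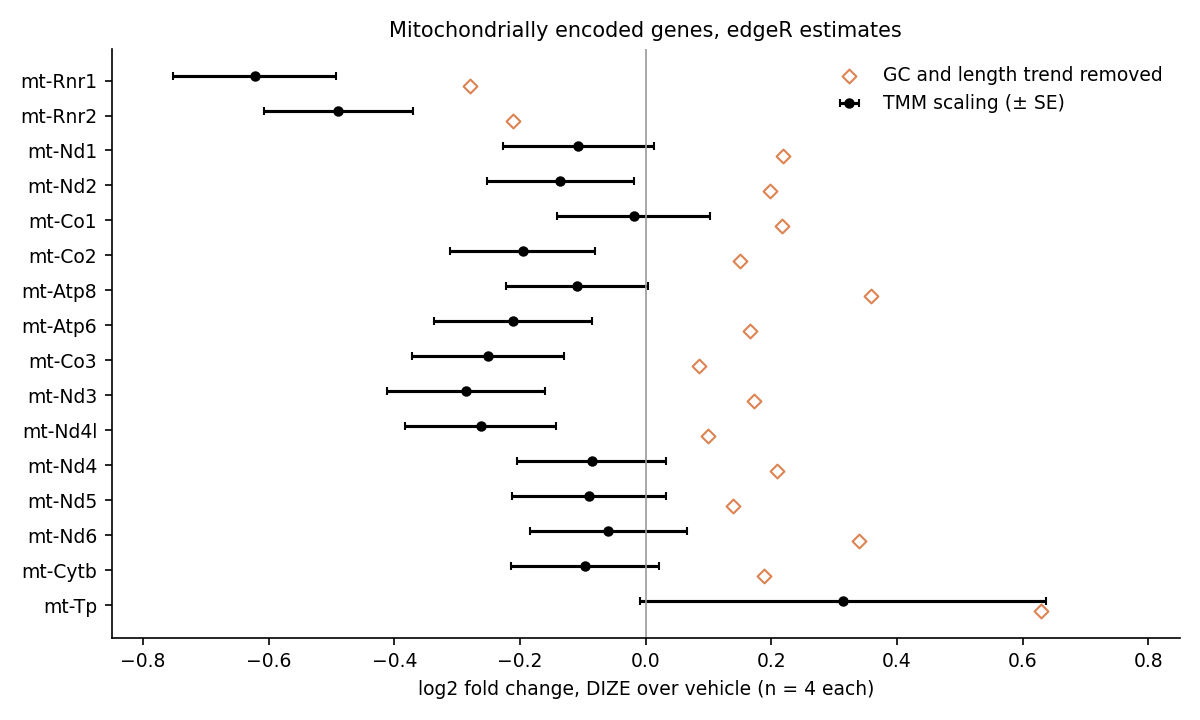
Log2 fold change of DIZE over vehicle for the 16 tested mitochondrially encoded genes, with 4 libraries in each group; black points are edgeR estimates with TMM scaling and bars their standard errors, and open diamonds the estimates after removal of each library's GC and length trend. Both rRNAs stay below 0 in both, the 13 protein genes cross from below to above 0, and mt-Tp is above 0 in both.

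Complex I, the NADH dehydrogenase that passes electrons to ubiquinone, takes 7 of the protein genes. mt-Nd1 had 9076 ± 598 CPM in DIZE and 10201 ± 1349 CPM in vehicle (SD, n = 4 each), and mt-Nd2 had 9076 ± 571 CPM in DIZE and 10406 ± 1248 CPM in vehicle. Both encode core membrane subunits, and for both the groups overlapped, with log2 fold changes of -0.11 ± 0.12 and -0.14 ± 0.12. mt-Nd4 had 7148 ± 496 CPM in DIZE and 7933 ± 836 CPM in vehicle (log2 -0.09 ± 0.12). mt-Nd5, a proton-pumping subunit like mt-Nd2 and mt-Nd4, had 14234 ± 1126 CPM in DIZE and 15852 ± 1911 CPM in vehicle (log2 -0.09 ± 0.12).

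The small complex I genes had the largest differences among the protein genes. mt-Nd3 had 52.9, 45.8, 53.4 and 53.8 CPM in DIZE 1 to 4, against 69.3, 67.1, 73.2 and 52.7 CPM in vehicle 1 to 4. Vehicle 4 lay within the DIZE range and the other vehicle libraries above it, with a log2 fold change of -0.29 ± 0.13 (edgeR unadjusted p = 0.0424, adjusted p = 0.241). mt-Nd4l had 60.3, 45.5, 57.4 and 57.5 CPM in DIZE 1 to 4, against 67.4, 67.6, 76.3 and 64.9 CPM in vehicle 1 to 4. Its groups did not overlap, with a log2 fold change of -0.26 ± 0.12 (edgeR adjusted p = 0.26). Nearly all of the sequence of both genes recurs in the chromosome 1 copy shown above.

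mt-Nd6 (ENSMUSG00000064368), at chrM:13552-14070, is the protein gene of the minus strand, and its end overlaps mt-Nd5 by 14 bases. It had 2628, 2720, 2426 and 2413 CPM in DIZE 1 to 4, against 2649, 2886, 3129 and 2409 CPM in vehicle 1 to 4. The groups overlapped, with a log2 fold change of -0.06 ± 0.12. Per 100 reads of the other 12 protein genes, mt-Nd6 had 3.57 ± 0.0597 reads in DIZE and 3.51 ± 0.184 reads in vehicle. The log2 ratio differed by 0.03 (two-sided exact permutation test over the 70 splits, p = 0.8; the smallest p this design allows is 0.0286). Without vehicle 1, which had 3.23 reads per 100 against 3.58 to 3.61 in the other vehicle libraries, the difference was -0.01 (exact permutation p = 0.457, and between 0.457 and 1 over all alternatives).

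mt-Cytb, the cytochrome b gene of complex III, had 12202, 12544, 10978 and 10915 CPM in DIZE 1 to 4, against 13549, 13391, 14121 and 11105 CPM in vehicle 1 to 4. The groups overlapped through vehicle 4 alone (log2 -0.10 ± 0.12, edgeR adjusted p = 0.682).

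Complex IV, the cytochrome c oxidase, has its 3 core subunits here. mt-Co1, which carries the oxygen-reducing centre, had 19912, 21337, 18107 and 17603 CPM in DIZE 1 to 4, against 21709, 20931, 21800 and 17210 CPM in vehicle 1 to 4. It had the highest count of all members in every library, and the smallest difference between groups (log2 -0.02 ± 0.12). mt-Co2, which receives electrons from cytochrome c, had 318.6 ± 29.8 CPM in DIZE and 380.3 ± 31.3 CPM in vehicle (log2 -0.20 ± 0.12). mt-Co3 had 323.9, 246, 325 and 316 CPM in DIZE 1 to 4, against 385, 389, 397 and 331 CPM in vehicle 1 to 4. Its groups did not overlap, with DIZE 2 lowest and vehicle 4 closest to DIZE (log2 -0.25 ± 0.12, edgeR adjusted p = 0.285).

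The ATP synthase has 2 membrane subunits encoded here. mt-Atp6, part of the proton channel, had 216, 159.5, 219 and 223 CPM in DIZE 1 to 4, against 245, 252, 261 and 226 CPM in vehicle 1 to 4. The groups were next to each other, with the highest DIZE library at 223 CPM and the lowest vehicle library at 226 CPM, and the log2 fold change was -0.21 ± 0.13 (edgeR adjusted p = 0.372). mt-Atp8, the shortest protein gene, had 23.6, 21.9, 22.6 and 22.4 CPM in DIZE 1 to 4, against 25.5, 24.2, 27.9 and 24.6 CPM in vehicle 1 to 4. Its lowest level came from 176 reads in DIZE 2, and its log2 fold change was -0.11 ± 0.11 (edgeR adjusted p = 0.619).

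Levels per length fell into separate ranges. In CPM per kb, mt-Co1 was highest, with 12453 ± 1109 in DIZE and 13212 ± 1405 in vehicle. mt-Cytb followed with 10192 ± 731 in DIZE and 11399.9 ± 1161 in vehicle, then mt-Nd1, mt-Nd2, mt-Nd5, mt-Nd4 and, with 4907 ± 293 in DIZE and 5334 ± 596 in vehicle, mt-Nd6. Over libraries, mt-Nd5 lay above mt-Nd4 with no overlap in both groups, and mt-Co1 lay above mt-Cytb with no overlap in DIZE. The other neighbours in this order overlapped in both groups, and mt-Co1 and mt-Cytb overlapped in vehicle. These are ranges over libraries, and their overlap does not show that the order changed within a library. In vehicle 4, the lowest vehicle library for both genes, mt-Co1 had 11139 and mt-Cytb 9707 CPM per kb. The rRNAs lay below these, with 2182 ± 137 CPM per kb in DIZE and 3201 ± 369 in vehicle for mt-Rnr2. The other 6 protein genes were far lower, from 466 ± 43.5 CPM per kb in DIZE and 556 ± 45.8 in vehicle for mt-Co2 to 111 ± 3.58 in DIZE and 125 ± 8.27 in vehicle for mt-Atp8.

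The low range is the stretch from mt-Co2 to mt-Nd4l, which lies between highly counted genes on the same strand. Of the 151-base words of each gene, 99.4% recur in an annotated nuclear gene for mt-Co2, 99.4% for mt-Atp6, 99.8% for mt-Co3, 97.0% for mt-Nd3 and 98.0% for mt-Nd4l. The share was 59.1% for mt-Nd4 and 23.6% for mt-Co1, and 0% for mt-Nd1, mt-Nd2, mt-Nd5, mt-Nd6, mt-Cytb and both rRNAs. mt-Nd4 and mt-Nd4l, on one mRNA, had levels per kb 27.9-fold apart in DIZE and 24.8-fold apart in vehicle, with mt-Nd4 higher. Divided instead by its 502 words outside the copy, mt-Nd4 had 14239 CPM per 1000 words in DIZE and 15803 in vehicle, next to 18049 in DIZE and 19149 in vehicle for mt-Co1. By this measure it lay above mt-Cytb, with 11730 in DIZE and 13120 in vehicle, while per kb it lay below mt-Cytb. The words describe single reads and the libraries were read in pairs, so this division may overcorrect. The authors' treatment of reads with several matches is not given in the sources used here, so the levels of these genes relative to other genes are uncertain.

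mt-Atp8 was low without a recurring word: 0% of its 54 read-length words lie in an annotated gene of the nucleus. The annotated copies of mt-Co2 and mt-Atp6 on chromosome 1, Gm28661 and Gm10925, are 233 bases apart, the same as the matching parts of the mitochondrial genome, where mt-Atp8 lies between them. The sequence of that gap on chromosome 1 was not used here. The gene is 204 bases long, of which 43 are shared with mt-Atp6 as shown above.

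**Figure D3:**
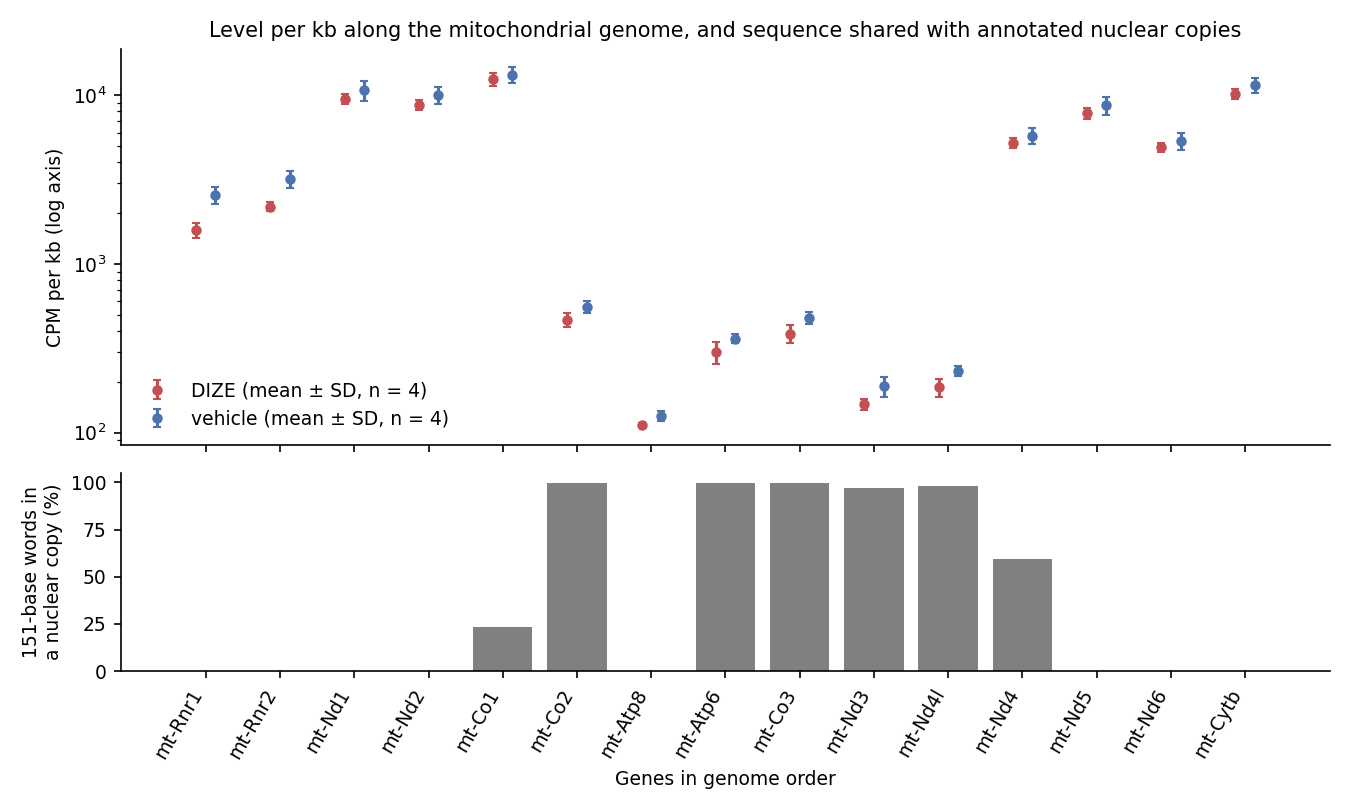
Upper panel, mean level per kb of gene length (log axis) of the rRNAs and protein genes in genome order, with SD over 4 DIZE and 4 vehicle libraries; lower panel, the percent of each gene's 151-base words that also occur in an annotated nuclear gene. Levels drop between mt-Co1 and mt-Nd4, where that percent is 97.0 or more for each gene except mt-Atp8.

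The copies themselves received reads. Gm29216, the copy of the end of mt-Co1, had 9362 counts over the 8 libraries, Gm28661 8127, Gm10925 7934, Gm28437 8424, Gm28438 3857, Gm10222 1345 and Gm28439 6162. None passed the test, and their log2 fold changes ran from -0.22 for Gm28437, the copy of mt-Co3, to -0.02 for Gm28439. Gm28438 had 3857 counts beside 4133 counts for its original, mt-Nd3, and Gm28439 had 6162 counts beside 531805 counts for mt-Nd4. Whether these reads came from chromosome 1 or from mitochondrial RNA cannot be told apart in these counts.

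Of the 22 tRNAs, 20 had 0 counts in every library, where the limit that 0 counts allow (3 counts) was 0.295 to 0.373 CPM in DIZE and 0.298 to 0.403 CPM in vehicle. The tRNAs are 59 to 75 bases long, shorter than the 151-base reads, and lie beside longer genes or other tRNAs. mt-Tc, the cysteine tRNA, had 0, 3, 6 and 6 counts in DIZE 1 to 4, against 4, 7, 3 and 9 counts in vehicle 1 to 4, which is at or near that limit.

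mt-Tp, the proline tRNA (chrM:15356-15422, minus strand), was the tRNA with a level. Capitals mark the middle 3 bases of its anticodon loop.
mt-Tp: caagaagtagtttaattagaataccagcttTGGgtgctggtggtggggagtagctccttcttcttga
It had 183.9, 424, 152 and 157 CPM in DIZE 1 to 4, against 241, 196, 198 and 147 CPM in vehicle 1 to 4. DIZE 2, with 3411 counts, stood above all others, and the remaining DIZE libraries lay within the vehicle range. The log2 fold change was 0.31 ± 0.32 (edgeR adjusted p = 0.621), and -0.19 without DIZE 2.

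DIZE 2 also stood apart in how the protein-gene reads were divided. mt-Nd1 took 10.7% of the 13-gene sum in DIZE 2, against 12.4% to 13.3% in the other DIZE libraries and 12.1% to 12.9% in vehicle. mt-Nd2 took 10.9% in DIZE 2, against 12.6% to 12.9% in the other DIZE libraries and 12.4% to 13.1% in vehicle. mt-Co1 took 27.6% in DIZE 2, against 25.1% to 25.7% in the other DIZE libraries and 24.1% to 25.7% in vehicle. For each of the 13 genes the DIZE and vehicle shares overlapped.

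Raw counts of the abundant protein genes varied less between libraries than the library totals did. The totals had a coefficient of variation (CV) of 12.03% over the 8 libraries. The summed counts of the 7 protein genes over 1000 CPM had a CV of 5.52% as raw counts and 9.87% as CPM. mt-Nd6 ranged from 21876 to 24530 raw counts in DIZE and from 23235 to 24231 in vehicle (CV 4.25% raw, 9.59% as CPM). Of 3394 nuclear genes with over 500 counts, 432 (12.7%) likewise had a lower CV in raw counts than in CPM, and 0 of the 9 nuclear genes with over 20000 counts per kb did. In vehicle alone, mt-Rnr1 had 20201 to 21933 raw counts while totals ran from 7447664 to 10056759.

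**Figure D4:**
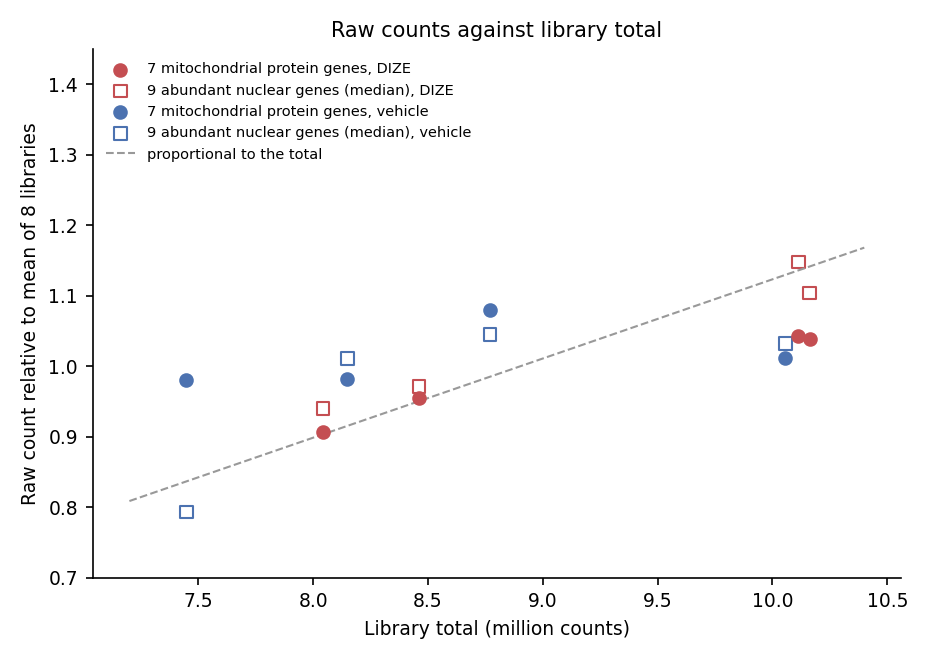
Raw counts relative to their mean over the 8 libraries, plotted against the library total, for the sum of the 7 abundant mitochondrial protein genes (filled circles) and the median of 9 abundant nuclear genes (open squares); the dashed line is proportion to the total. The filled circles run from 0.907 to 1.08, while the totals run from 0.837 to 1.14 of their mean.

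The nuclear genes that copy, transcribe and translate mitochondrial DNA were described from lists, and none of their tested members passed over all genes. Over all 13648 tested genes, 6577 lay higher in DIZE and 7071 lower, and 748 had every DIZE library above every vehicle library. Of 10 tested genes of mitochondrial transcription, 4 lay higher and 6 lower, with a median log2 fold change of -0.05. Tfam, which packages mitochondrial DNA and starts its transcription, had 57.0 ± 5.33 CPM in DIZE and 57.6 ± 9.15 CPM in vehicle (log2 0.06 ± 0.12). Polrmt, the mitochondrial RNA polymerase, had 56.0 ± 3.62 CPM in DIZE and 41.5 ± 15.2 CPM in vehicle (log2 0.47 ± 0.27). Vehicle 1 had 20.3 CPM where vehicle 2 to 4 had 42.7 to 56.2 CPM, and the log2 value was 0.22 without it. Of 17 genes of mitochondrial DNA replication and maintenance, 9 lay higher and 8 lower (median 0.02). Slc25a33, a mitochondrial carrier of pyrimidine nucleotides, had 12.4 ± 1.39 CPM in DIZE and 20.7 ± 7.02 CPM in vehicle (log2 -0.66 ± 0.20, edgeR adjusted p = 0.138), with overlap. Lig3, a DNA ligase, had 16.4 ± 3.61 CPM in DIZE and 22.5 ± 3.38 CPM in vehicle (log2 -0.40 ± 0.18), also with overlap. Twnk, the replicative helicase, had 44.3 ± 1.54 CPM in DIZE and 36.1 ± 4.44 CPM in vehicle (log2 0.35 ± 0.13).

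In the main test, genes that process, stabilise and modify mitochondrial RNA lay mostly higher in DIZE without passing. Of 12 processing genes, 9 lay higher (median 0.16), with Grsf1, an RNA granule protein, at 320.8 ± 19.8 CPM in DIZE and 276 ± 26.3 CPM in vehicle (log2 0.28 ± 0.13). Of 7 genes of mRNA stability, polyadenylation and decay, 4 lay higher (median 0.17). Lrpprc, which stabilises mitochondrial mRNAs, had 309 ± 22.8 CPM in DIZE and 281 ± 31.7 CPM in vehicle (log2 0.19 ± 0.13), and Mtpap, the mitochondrial poly(A) polymerase, had 29.2 ± 3.08 CPM in DIZE and 26.2 ± 4.88 CPM in vehicle (log2 0.21 ± 0.17). Slirp, the partner of Lrpprc, overlaps genes on the other strand and had at most 1 count in any library, so it was not tested. Of 19 genes that modify mitochondrial rRNA and tRNA, 16 lay higher (median 0.14).

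Of 16 mitochondrial translation factors, 12 lay higher (median 0.11). Oxa1l, which inserts newly made mitochondrial proteins into the inner membrane, had 161.7 ± 7.0 CPM in DIZE and 125.3 ± 17.5 CPM in vehicle (log2 0.42 ± 0.14, edgeR adjusted p = 0.157). Of 22 mitochondrial aminoacyl-tRNA synthetase genes, 16 lay higher (median 0.10), with Aars2 at 38.2 ± 1.83 CPM in DIZE and 30.3 ± 1.83 CPM in vehicle (log2 0.40 ± 0.12). Lars2, the leucyl member of that list, lay the other way, with 383, 421, 587 and 351 CPM in DIZE 1 to 4, against 700.4, 942, 657 and 762 CPM in vehicle 1 to 4. Its groups did not overlap (log2 -0.76 ± 0.19, edgeR adjusted p = 0.101), as in 6.18% of all tested genes in that direction. Lars2 ordered the DIZE libraries as CT010467.1 and both mitochondrial rRNAs did, with DIZE 3 highest and DIZE 4 lowest. In the vehicle group Lars2 and CT010467.1 were both highest in vehicle 2 and lowest in vehicle 3, where the mitochondrial rRNAs were highest. The cause of this shared order was not tested. DESeq2 passed Lars2, as did edgeR without the filter on low counts.

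Nuclear markers of mitochondrial mass lay in the opposite direction to the rRNAs. Of 14 such genes, 12 lay higher (median 0.19). Cs, the citrate synthase gene, had 2305, 2596, 2481 and 2357 CPM in DIZE 1 to 4, against 1379, 2058, 1666 and 1906 CPM in vehicle 1 to 4. Its groups did not overlap, as in 748 of all 13648 tested genes with DIZE above, and vehicle 1 was lowest. The log2 fold change was 0.53 ± 0.15 (edgeR adjusted p = 0.128), and both DESeq2 and edgeR without the filter passed Cs. Of 24 nuclear partners of the mitochondrially encoded subunits, 16 lay higher (median 0.04), with Uqcrc1 of complex III at 1523 ± 81.2 CPM in DIZE and 1206 ± 161 CPM in vehicle (log2 0.39 ± 0.14). Counts and medians of all these lists come from the main test, with the GC and length trend left in. With that trend removed, log2 values shrank for Aars2 (0.11), Twnk (0.22), Polrmt (0.27), Uqcrc1 (0.30) and Oxa1l (0.35). They grew for Tfam (0.14), Lrpprc (0.26), Mtpap (0.28), Grsf1 (0.31) and Cs (0.54). Lars2 (-0.81) and Slc25a33 (-0.73) stayed lower in DIZE.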

How the data were processed

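Per the labels' protocols, TRIzol-extracted RNA was poly(A)-selected with oligo(dT) beads, made into stranded mRNA libraries and sequenced as 151-base read pairs. STAR 2.7.3, HTSeq 0.6.1p1, edgeR and R 4.1, with the build mm10, appear in the submitters' processing notes. How strand and multiple matches were handled is not given in the sources used here. Raw counts per Ensembl gene, not normalized by the authors, were deposited; 0 columns were from other samples. Symbols matched 55141 of 55487 IDs, and positions, length and GC content came from GENCODE on GRCm38.

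CPM were computed here on library totals; means are ± SD (n = 4). The main test was edgeR's two-sided quasi-likelihood test (edgeR 4.0.16, R 4.3.3, robust, TMM factors, filterByExpr with minimum count 10, Benjamini-Hochberg adjustment over 13648 genes, threshold 0.05); ratios used an exact permutation test or none. Alternatives were DESeq2 1.42.0, other scalings and filters, removal of each library's GC and length trend, title form as a term, title number as a block, and each library left out. The most alike libraries differed by 5.10 chi-square units per degree of freedom. The procedure was also run on simulated data, and the outcome is not given here. Named nuclear genes are up to 4 per list with the smallest unadjusted p and 5 fixed genes; list members not in the table or not tested were left out. Members were picked by their symbols alone, but this rule, the lists and the tests were set with earlier results of these data known.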

Additional observations from a re-analysis of the deposited data

Results flagged for a closer look

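Among 38 groups of 4 libraries examined, 7 had a library whose gap to the nearest other exceeded Dixon's critical share of the group's range. Chance gives about 1 in 20 for a single group, but these groups share libraries and are not independent. The 7 thus do not count as separate outliers. In DIZE 2, 4 protein genes were low: mt-Co2 had 274 CPM against 331 to 337 CPM in the other DIZE libraries, mt-Atp6 159.5 against 216 to 223 CPM, mt-Co3 246 against 316 to 325 CPM, and mt-Nd3 45.8 against 52.9 to 53.8 CPM. In the same library mt-Tp was high, at 424 CPM against 152 to 183.9 CPM. Among vehicle libraries, mt-Nd4 had 6689 CPM in vehicle 4, where vehicle 1 to 3 had 8240 to 8498 CPM. Vehicle 1 had 3.23 mt-Nd6 reads per 100 reads of the other 12 protein genes, against 3.58 to 3.61 in the others.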

How the results depend on the processing

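Of 255 values of the 13 protein genes and both rRNAs under the alternatives, 233 kept their direction and their side of the threshold, 19 turned sign and 3 newly passed. The 3 were mt-Rnr1 and mt-Rnr2 with DESeq2 and mt-Rnr1 without a filter on low counts. Genes called over the whole table numbered 588 with DESeq2, 0 with library totals alone, 386 without the filter, 40 with the GC and length trend removed, 9 with title form as a term, and 0 to 240 with single libraries left out, highest without vehicle 2. Members called numbered 2 with DESeq2 and 1 without the filter, and called genes of the nuclear lists 2 in each (Lars2 and Cs).

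With the GC and length trend removed, the protein-gene median turned to 0.19, with mt-Nd1 at 0.22, mt-Nd2 0.20, mt-Co1 0.22, mt-Co2 0.15, mt-Atp8 0.36, mt-Atp6 0.17, mt-Co3 0.085, mt-Nd3 0.17, mt-Nd4l 0.10, mt-Nd4 0.21, mt-Nd5 0.14, mt-Nd6 0.34 and mt-Cytb 0.19. The copies turned too, with Gm29216 at 0.19, Gm28661 0.24, Gm10925 0.28, Gm28437 0.11, Gm28438 0.27, Gm10222 0.30 and Gm28439 0.34. Without the filter, mt-Co1 had 0.00045 and Gm28439 0.0034. With library totals alone, which moved the median of all genes to -0.08, Tfam had -0.018. With single libraries left out, log2 values spanned -0.091 to 0.041 for mt-Co1, -0.12 to 0.013 for mt-Nd6, -0.19 to 0.48 for mt-Tp (counted apart, and below 0 in 1 setting, without DIZE 2), -0.027 to 0.12 for Tfam, -0.22 to 0.0052 for Gm28661, -0.23 to 0.023 for Gm10925, -0.15 to 0.070 for Gm10222 and -0.13 to 0.13 for Gm28439. The mt-Nd6 ratio spanned -0.014 to 0.039, the rRNA ratio -0.52 to -0.42 on the log2 scale, mt-Rnr1 -0.70 to -0.55 and mt-Rnr2 -0.56 to -0.43. The cause of these shifts was not tested.

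The title numbers were not used as pairs in the main test. Deviations from group means in same-numbered libraries had correlations between -0.14 and 0.04. These values cannot show whether libraries were paired, since number 4 was shared by vehicle 2, vehicle 3, DIZE 2 and DIZE 4. As a replicate block, the title numbers gave 0 called genes, a protein-gene median of -0.20 and 0.082 for Gm28439. Poly(A) selection, unknown counting settings and library depth limit low genes and the tRNAs most.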
